A study of Mus musculus with 6 samples.

Results

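The genes described here make, move and break down the monoamines dopamine, noradrenaline and serotonin. They were taken by symbol from the count tables: Th, Ddc, Gch1, Tph2, Slc6a3, Slc6a4, Slc18a2, Maoa and Maob, which are 9 of the 23282 entries listed. The tables came from RNA-Seq of the whole forebrain of wild-type C57BL/6J male mice, 8 to 10 weeks old, after 10 days on a normal chow diet (NCD, 3 libraries) or on a high-fat diet (HFD, 60 kcal% fat, 3 libraries). The olfactory bulbs and the cerebellum were removed, and the hemispheres were divided between sequencing and metabolite profiling. Whether each library is a separate mouse is not said outright in the labels, so the p-values below measure only the spread between these libraries. In bulk tissue, fewer cells of a type and less RNA in each cell cannot be told apart.

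Dopamine is made from tyrosine by tyrosine hydroxylase (Th) and aromatic amino acid decarboxylase (Ddc), and serotonin from tryptophan by tryptophan hydroxylase (Tph2) and the same decarboxylase. Both hydroxylases need tetrahydrobiopterin, whose synthesis starts with GTP cyclohydrolase (Gch1). The vesicular transporter Slc18a2 loads monoamines into vesicles, Slc6a3 and Slc6a4 take dopamine and serotonin back up, and the monoamine oxidases Maoa and Maob degrade them. As background, the cell bodies of most dopamine neurons lie in the ventral midbrain, with smaller groups in the hypothalamus and olfactory bulb, and those of serotonin neurons lie in the raphe nuclei of the brainstem, while the forebrain holds mainly their axons.

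On the GRCm38 build, Th lies at chr7:142892752-142931128, Ddc at chr11:11814101-11898144, Gch1 at chr14:47153895-47189413 and Tph2 at chr10:115078641-115185022, all on the minus strand. Slc6a3 lies at chr13:73536747-73578672, Slc6a4 at chr11:76998603-77032340 and Slc18a2 at chr19:59260896-59296012, all on the plus strand. Maoa (chrX:16619698-16687818, plus) and Maob (chrX:16709282-16817366, minus) are neighbours on the X chromosome. Slc18a2 shares exon sequence with the antisense gene Gm29261 on the other strand, and since the use of strand in counting is not stated, reads of the pair cannot be told apart. The other 8 genes have no exon overlap with another gene.

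The 250 bases upstream of the RefSeq start (GRCm38.p6) are shown for the 4 of these genes with the lowest p-values in the diet comparison. The intervals are chr7:142899996-142900245, chr14:47189414-47189663 and chr10:115185023-115185272 on the minus strand and chr11:76998347-76998596 on the plus strand, and capitals mark motif matches, searched on both strands.
Th: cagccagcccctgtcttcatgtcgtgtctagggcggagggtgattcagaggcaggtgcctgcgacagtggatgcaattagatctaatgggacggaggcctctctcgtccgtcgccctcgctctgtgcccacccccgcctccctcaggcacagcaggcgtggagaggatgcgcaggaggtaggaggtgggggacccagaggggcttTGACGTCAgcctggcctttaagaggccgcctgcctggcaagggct
Gch1: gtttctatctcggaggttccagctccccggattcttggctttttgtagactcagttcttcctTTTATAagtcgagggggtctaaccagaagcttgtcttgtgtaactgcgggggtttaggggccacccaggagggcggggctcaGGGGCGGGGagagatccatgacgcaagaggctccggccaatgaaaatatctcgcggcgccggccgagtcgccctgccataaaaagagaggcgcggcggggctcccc
Tph2: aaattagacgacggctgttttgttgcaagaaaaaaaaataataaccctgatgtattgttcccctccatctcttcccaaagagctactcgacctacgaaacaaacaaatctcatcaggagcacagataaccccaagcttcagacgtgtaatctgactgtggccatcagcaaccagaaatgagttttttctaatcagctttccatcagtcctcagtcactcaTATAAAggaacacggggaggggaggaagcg
Slc6a4: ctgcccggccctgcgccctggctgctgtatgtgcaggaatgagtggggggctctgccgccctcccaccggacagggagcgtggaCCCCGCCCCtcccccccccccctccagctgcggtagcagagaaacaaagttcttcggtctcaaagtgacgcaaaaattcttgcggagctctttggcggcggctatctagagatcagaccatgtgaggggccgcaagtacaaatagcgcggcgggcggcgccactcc
The capitals are the cyclic AMP response element TGACGTCA in Th, the letters TATAAA on the opposite strand and the GC box GGGGCGGGG in Gch1, TATAAA in Tph2, and the GC box on the opposite strand in Slc6a4. TGACGTCA begins 45 bases before the start of Th, and 1.55% of 32851 promoters of this length hold it. TATAAA begins 30 bases before the start of Tph2, and 12.4% of promoters hold it. The GC box was present in 10.4% of promoters. AAAGGTCA, the NR4A monomer site, stood only in the first promoter of Ddc, where it overlaps a TATAAA match, and in 1.34% of promoters. TAATCC, the bicoid-type homeodomain core, stood in 6.25% of promoters and in none of the promoters listed for these genes. The windows of Slc6a3, Slc18a2 and Maoa held no match to the letters searched, and Maob had no promoter to search. A match is a description of the sequence only.

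Total counts lay between 6842785 and 9689372 per library, and 13771 genes passed the filter on low counts, all 9 monoamine genes among them. The filter asked for 1.17 CPM in 3 libraries, which 6 of the 9 genes reached in each diet alone, while Gch1, Tph2 and Slc6a4 reached it only through the NCD libraries, where they were higher. A count of 3, taken as the floor, equals 0.316 to 0.431 CPM (the count scaled to the library's total, with TMM factors). Transcripts of forebrain neurons were abundant, with 2377 to 2649 CPM summed over 6 marker genes, and so were those of astrocytes, with 4487 to 4944 CPM over 8. HFD replicate 3 had the lowest sums for midbrain dopamine neurons, hypothalamus, olfactory bulb, noradrenaline neurons and hindbrain, and astrocytes, and narrowly for raphe. It was not the lowest for midbrain tectum, ependyma, endothelium, microglia, choroid plexus, forebrain neurons or striatum. NCD replicate 2 had the highest olfactory bulb sum, 54.7 CPM. HFD replicate 3 gave the lowest value for 27.2% of all genes tested, and NCD replicate 3 for 21.7%. Among the monoamine genes HFD replicate 3 was lowest for 7 of 9.

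Th, Gch1, Tph2 and Slc6a4 had lower mean levels under the HFD, by 1.80-fold for Th, 2.75-fold for Gch1, 2.62-fold for Tph2 and 4.37-fold for Slc6a4. These 4 of 9 genes had an unadjusted p under 0.05 and a fold of at least 1.5, where 1.98% of all genes tested had such a p with a lower value under the HFD, 0.748% with that fold as well. The same p with a higher value under the HFD was seen in 1.71% of all genes (0.53% with that fold) and in 0 of the 9. A mean lower by at least 1.5-fold, whatever the p, was seen in 2.04% of all genes and in the same 4 of 9. The other 5 genes had log2 fold changes between -0.25 and 0.01. No monoamine gene passed an adjusted p of 0.05 by edgeR's quasi-likelihood test, adjusted after Benjamini-Hochberg over all genes, and neither did any other gene, although 507 had an unadjusted p under 0.05. DESeq2 called 2 genes and edgeR without a filter called 23. The counts of these 9 genes are descriptions, since 3 of the 4 lower genes passed the filter only through the NCD libraries. In 8 of 9 genes the log2 fold change was below 0, against 50.6% of all genes, and the median was -0.25 against -0.00 over all genes. HFD libraries were all below NCD libraries in 1 of 9 genes, Gch1, against 4.49% of all genes tested, and all above in 0 of 9, against 4.31%.

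**Figure D1:**
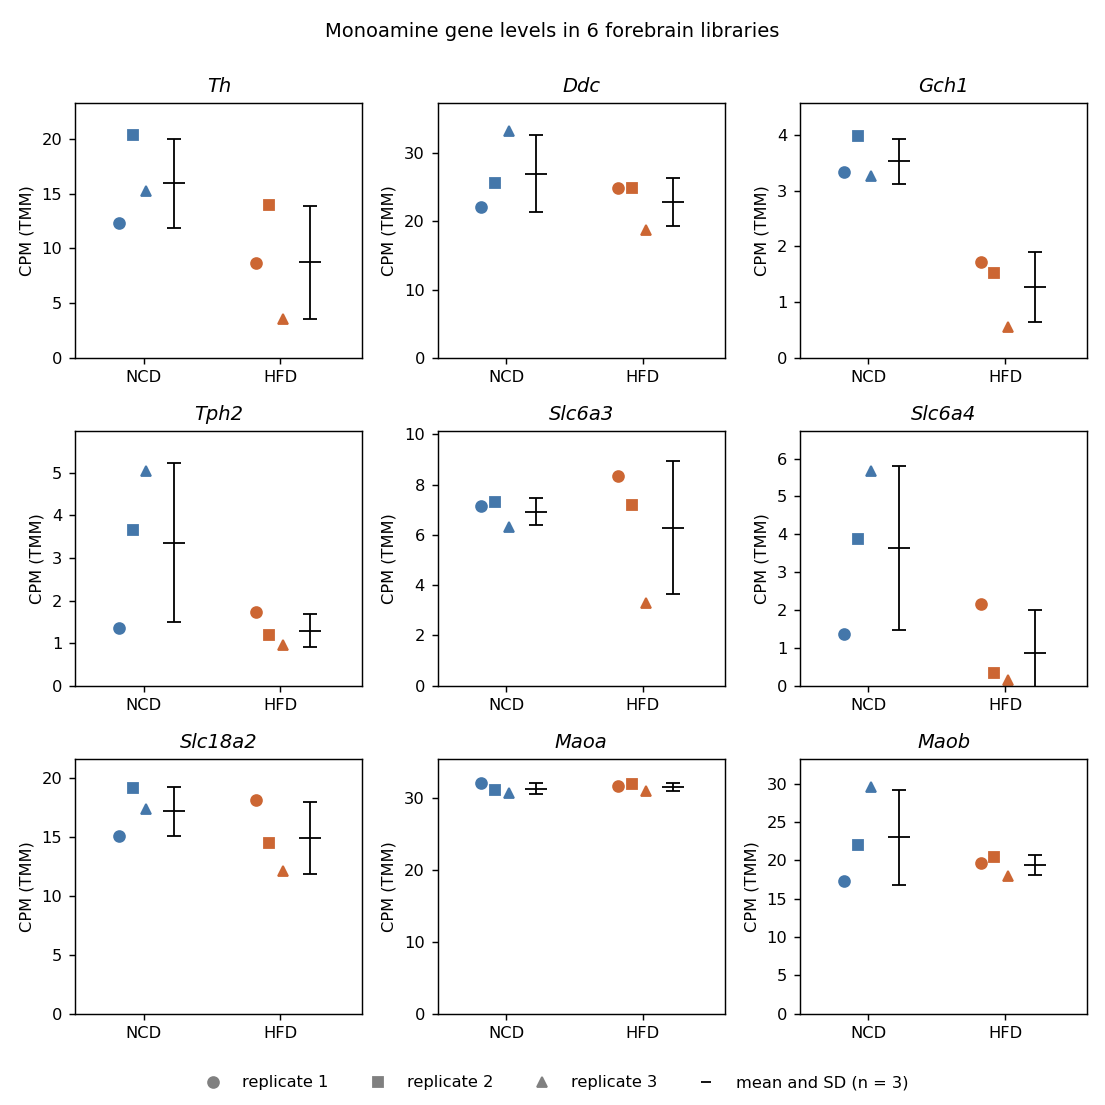
Levels of the 9 monoamine genes in CPM (TMM scaling, vertical axes from 0) in the NCD and HFD libraries, with a symbol for each library and a bar for the mean and SD of 3 libraries, cut at 0 for Slc6a4. Gch1 is the panel in which all HFD libraries (0.549 to 1.72 CPM) sit below all NCD libraries (3.26 to 3.98 CPM), and Maoa is flat at 30.6 to 32.0 CPM.

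Among the genes of synthesis, Th, the rate-limiting enzyme of dopamine and noradrenaline synthesis, stood at 12.3, 20.4 and 15.3 CPM in NCD replicates 1, 2 and 3 and at 8.62, 14.0 and 3.57 CPM in HFD replicates 1, 2 and 3. HFD replicate 2 lay above NCD replicate 1, so the diets overlapped, and HFD replicate 3 lay far below the rest on the strength of 26 counts. The means were 16.0 ± 4.06 and 8.72 ± 5.20 CPM (SD, n = 3 per diet). edgeR's quasi-likelihood test gave Th a log2 fold change of -0.85 (standard error, SE, 0.32, 95% interval -1.52 to -0.18), an unadjusted p of 0.0160 and an adjusted p of 0.979. Leaving out HFD replicate 3 gave -0.48 (unadjusted p 0.0567), leaving out NCD replicate 2 gave -0.64 (unadjusted p 0.0842), and leaving out HFD replicate 2 gave -1.40 (unadjusted p 0.000495). DESeq2 gave Th an unadjusted p of 0.122.

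Ddc, which makes dopamine from L-DOPA and serotonin from 5-hydroxytryptophan, was at 22.2, 25.6 and 33.2 CPM under the NCD and at 24.9, 24.9 and 18.8 CPM under the HFD. The diets overlapped, with NCD replicate 3 the highest library and HFD replicate 3 the lowest. On the log2 scale the diets differed by -0.24 for Ddc (SE 0.17, 95% interval -0.60 to 0.11, unadjusted p 0.168). The difference was smaller than the spread between libraries.

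Gch1 had 27, 37 and 31 counts under the NCD, or 3.33, 3.98 and 3.26 CPM. On the HFD it had 12, 14 and 4 counts, or 1.72, 1.53 and 0.549 CPM. The diets did not overlap, the NCD libraries lay close together, and HFD replicate 3 was again the lowest. The means were 3.52 ± 0.400 and 1.27 ± 0.630 CPM (SD, n = 3 per diet). By edgeR, Gch1 had a log2 fold change of -1.46 (SE 0.42, 95% interval -2.35 to -0.56), an unadjusted p of 0.00318, the lowest of the 9 genes, and an adjusted p of 0.979. Leaving out each library in turn gave log2 fold changes from -1.70 to -1.12, and the unadjusted p was at most 0.0185 over the 18 alternatives that gave Gch1 a value. Gch1 is one of the genes that the study itself selected on these same libraries, so its place here is not independent evidence of its direction.

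Tph2, the neuronal enzyme that starts serotonin synthesis, had 11, 34 and 48 counts under the NCD and 12, 11 and 7 under the HFD, which are 1.36, 3.66 and 5.05 CPM against 1.72, 1.20 and 0.961 CPM. NCD replicates 2 and 3 stood above all other libraries, while NCD replicate 1 lay within the range of the HFD libraries. Tph2 had a log2 fold change of -1.39 by edgeR (SE 0.48, 95% interval -2.40 to -0.37), with unadjusted and adjusted p-values of 0.0105 and 0.979. Leaving out NCD replicate 3 gave -0.97 (unadjusted p 0.0901).

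Among the transporters, Slc6a4, which takes serotonin back into the neurons that release it, went down to the lowest counts. It had 11, 36 and 54 counts under the NCD and 15, 3 and 1 under the HFD, or 1.36, 3.88 and 5.68 CPM against 2.16, 0.327 and 0.137 CPM. HFD replicates 2 and 3 were at or under the floor of 3 counts, while HFD replicate 1 exceeded NCD replicate 1, as it did for Tph2. In edgeR this came to a log2 fold change of -2.13 (SE 0.67, 95% interval -3.54 to -0.72), with unadjusted and adjusted p-values of 0.00555 and 0.979. Without a filter on low counts its adjusted p was 0.0211 by the same test, and over all its alternatives the adjusted p ranged from 0.0211 to 1. Leaving out HFD replicate 1 gave a log2 fold change of -3.85, and DESeq2 gave an unadjusted p of 0.0685. On quantile-normalized log2(CPM + 1) values, which understate differences of low genes, limma gave -1.34 for Slc6a4 (unadjusted p 0.0208), -0.83 for Tph2 (0.0326), -1.01 for Gch1 (0.000961) and -0.92 for Th (0.0456).

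Slc6a3, the dopamine transporter, was at 7.15, 7.32 and 6.31 CPM under the NCD and at 8.34, 7.20 and 3.29 CPM under the HFD. Only HFD replicate 3 lay apart, at 24 counts against 58 to 68 in the other libraries. Slc6a3 differed by -0.14 on the log2 scale (SE 0.29, 95% interval -0.75 to 0.48, unadjusted p 0.642), and by 0.16 once HFD replicate 3 was left out. Slc18a2 stood at 15.04, 19.2 and 17.4 CPM under the NCD and at 18.1, 14.5 and 12.1 CPM under the HFD. The diets overlapped, and the log2 fold change of -0.21 (SE 0.18, 95% interval -0.59 to 0.17) came with an unadjusted p of 0.256.

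With all 6 libraries neither gene of breakdown had an unadjusted p under 0.05. Maoa, which prefers serotonin and noradrenaline as substrates, was at 32.0, 31.0 and 30.6 CPM under the NCD and at 31.6, 31.9 and 30.9 CPM under the HFD. The libraries hardly differed, with a coefficient of variation of 2.36% under the NCD and 1.62% under the HFD. The diets differed by 0.01 on the log2 scale for Maoa (SE 0.12, 95% interval -0.25 to 0.27, unadjusted p 0.928). Maob, which is found in astrocytes and serotonin neurons, stood at 17.4, 22.1 and 29.6 CPM under the NCD and at 19.7, 20.5 and 17.98 CPM under the HFD. The HFD libraries all lay within the wider range of the NCD libraries. Maob differed by -0.25 on the log2 scale (SE 0.18, 95% interval -0.62 to 0.13, unadjusted p 0.180). Leaving out NCD replicate 1 gave -0.41 (unadjusted p 0.0348), and leaving out NCD replicate 3 gave -0.03.

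**Figure D2:**
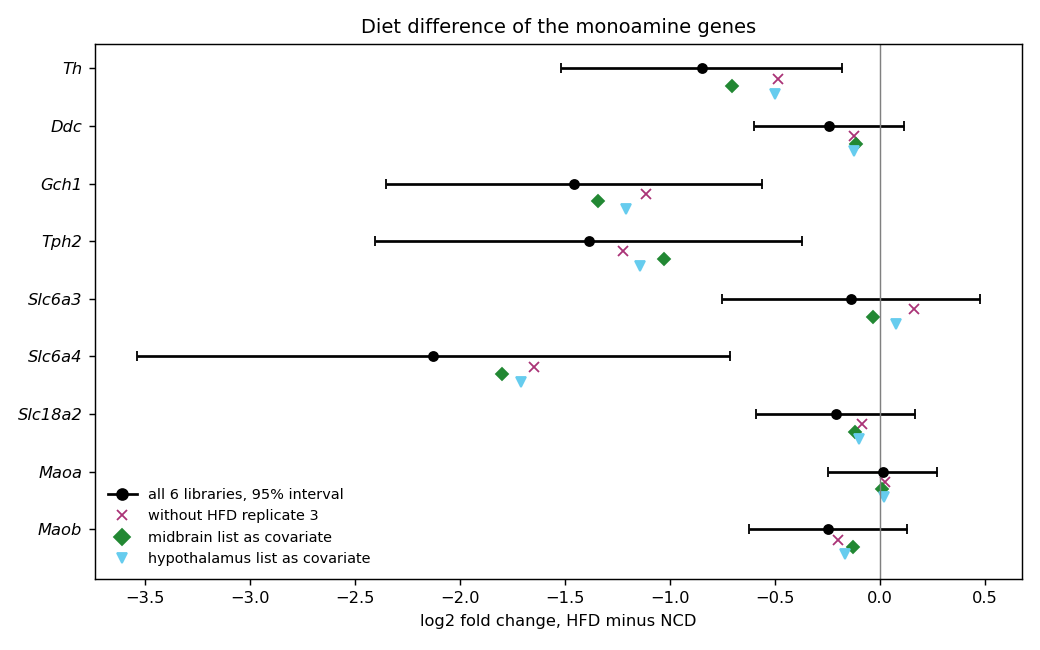
Log2 fold change (HFD minus NCD) of each monoamine gene from all 6 libraries, with its 95% interval, beside the values without HFD replicate 3 and with the summed midbrain or hypothalamus markers as a covariate. The intervals of Th, Gch1, Tph2 and Slc6a4 lie below 0, and for Th the value moves from -0.85 to -0.48 without HFD replicate 3.

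Midbrain content was followed with 2 marker lists that hold none of the 9 genes, and they ran differently. The first held 10 genes of midbrain dopamine neurons. Their summed level was 10.4, 13.9 and 20.6 CPM under the NCD and 19.1, 11.9 and 6.59 CPM under the HFD. The diets overlapped in this sum, but it varied widely among the libraries of each diet, and HFD replicate 3 was the lowest. Among them En1, a regional transcription factor of midbrain and anterior hindbrain, had 27, 52 and 79 counts under the NCD and 53, 33 and 13 under the HFD. En2 had 8, 15 and 56 counts under the NCD and 20, 19 and 14 under the HFD. En1 and En2 carried a large part of the summed level, so it does not follow dopamine neurons alone. Pitx3, which defines midbrain dopamine neurons, had 1 count in the 3 NCD libraries and 5 in the HFD libraries, all 5 in HFD replicate 1. Foxa2, a transcription factor of these neurons, had 12, 14 and 17 counts under the NCD and 4, 10 and 0 under the HFD. The diets did not overlap for Foxa2, which differed by -1.42 on the log2 scale (SE 0.65, unadjusted p 0.0430), and it too was among the genes selected by the study on these libraries. Foxa2 passed the filter only through the NCD libraries. Of the 10 genes, 5 were tested, 3 with a log2 fold change below 0 and 2 above, with a median of -0.33. Below 0 were En1 (-0.43, SE 0.42), En2 (-0.33, SE 0.53) and Foxa2. Above 0 were Chrna6 (0.27, SE 0.54) and Chrnb3 (0.47, SE 0.48). Chrna6 had 10, 17 and 12 counts under the NCD and 19, 19 and 3 under the HFD. The second list, 7 genes of the midbrain tectum, summed to 18.1, 22.2 and 26.4 CPM under the NCD and to 32.2, 21.8 and 21.96 CPM under the HFD. Here HFD replicate 3 lay in the middle and NCD replicate 1 was lowest, and all 5 genes tested had a log2 fold change above 0, with a median of 0.12. Otx2, Tal1 and Tfap2d carried most of this sum in HFD replicate 3, at 10.2, 5.49 and 4.12 CPM. Barhl1 and Sox14 were lowest in that library, at 5 and 3 counts, and the other genes of the list were not. The tectum sum thus does not show that midbrain content was kept in HFD replicate 3. Nr4a2, from a separate list of dopamine neuron genes that the forebrain also expresses, differed by -0.02 on the log2 scale (SE 0.11). Ret, Slc10a4 and Sncg of that list differed by 0.14 (SE 0.39), -0.10 (0.30) and -0.45 (0.28). Unlike Nr4a2, each of them was lowest in HFD replicate 3, at 1.65, 3.43 and 3.57 CPM.

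Markers of other sources of monoamine transcripts were near 0 or overlapped between the diets. Fev, which defines raphe serotonin neurons, had 1, 4 and 0 counts under the NCD and 1, 1 and 0 under the HFD, at or near 0 throughout. Gata3, shared by raphe and other midbrain neurons, differed by 0.18 on the log2 scale (SE 0.26), and the sum of the 4 raphe markers was 12.4 to 16.4 CPM under the NCD and 12.4 to 15.8 CPM under the HFD. Gata2, Gata3 and Slc17a8 carried this sum. Its Pearson correlation over the 6 libraries, on log2 values, was 0.10 with Tph2 and 0.08 with Slc6a4. The overlap in this sum does not show that serotonin neuron content was equal. Hoxc4, from the list of noradrenaline neurons and hindbrain and under the filter, had 0 counts under the NCD against 4, 4 and 0 under the HFD (unadjusted p 0.0245 by edgeR without a filter). Hypothalamus markers summed to 71.6, 113 and 94.3 CPM under the NCD and to 73.0, 113 and 30.7 CPM under the HFD. The neuropeptide genes Pmch, Oxt and Hcrt made up most of this sum in the other libraries and were lowest in HFD replicate 3, at 8.23, 3.29 and 0.961 CPM. Pomc, of the same list, was highest there, at 12.2 CPM against 1.16 to 4.63 CPM in the other libraries. The sum of 5 olfactory bulb markers was 5.55, 54.7 and 9.57 CPM under the NCD and 5.89, 21.9 and 3.98 CPM under the HFD, with NCD replicate 2 and HFD replicate 2 the highest of each diet, as they were for Th. Of the 5, 3 were tested, all with a log2 fold change below 0, and Eomes had an unadjusted p under 0.05 (0.0424) with 12, 136 and 18 counts under the NCD and 0, 37 and 0 under the HFD, passing the filter only through the NCD libraries. Shisa3, under the filter, had 3, 66 and 10 against 5, 17 and 4 counts (unadjusted p 0.00650 by edgeR without a filter).

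**Figure D3:**
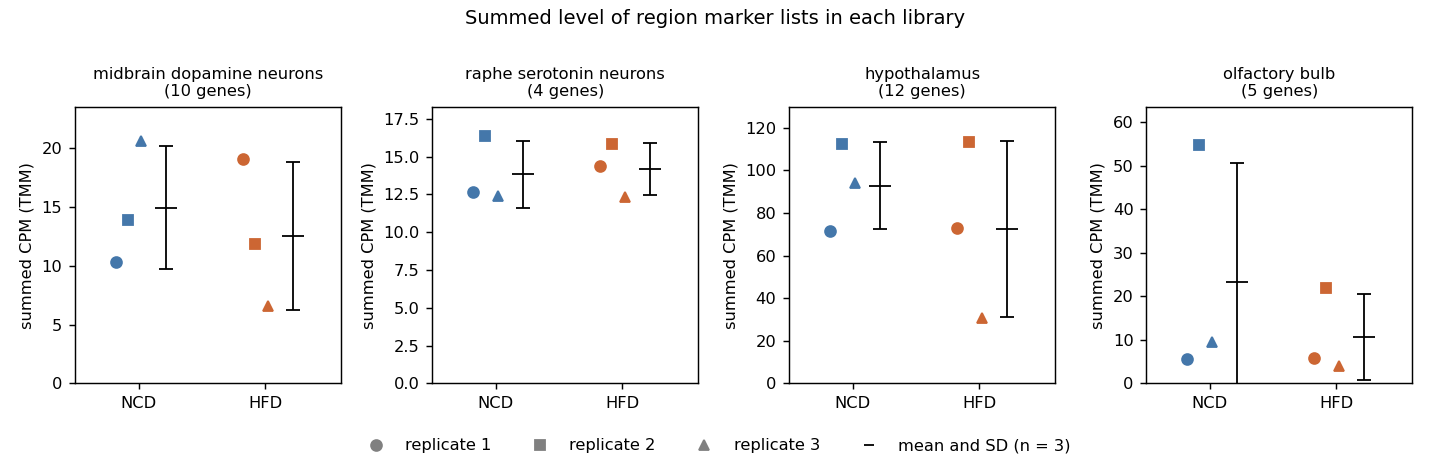
Summed CPM (TMM scaling, vertical axes from 0) of marker lists for midbrain dopamine neurons, raphe serotonin neurons, hypothalamus and olfactory bulb in each library, with the mean and SD of 3 libraries per diet, cut at 0 for the olfactory bulb. The diets overlap in all 4 panels, and HFD replicate 3 has the lowest sum in each. It is 6.59 CPM for midbrain dopamine neurons, 30.7 CPM for hypothalamus and 3.98 CPM for olfactory bulb. For raphe it is 12.35 CPM, close to NCD replicate 3 at 12.41 CPM.

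Across the 6 libraries the level of Th followed the hypothalamus sum with a Pearson correlation of 0.96, the olfactory bulb sum with 0.76 and the midbrain sum with 0.63, on log2 CPM. For Ddc, Slc18a2 and Slc6a4 the correlation with the midbrain sum was 0.89, 0.86 and 0.83, and for Maoa it was -0.12. With the astrocyte sum it was 0.69 for Th, 0.82 for Ddc, 0.52 for Slc18a2, 0.54 for Slc6a4 and 0.24 for Maoa. With the ependyma sum it was 0.55, 0.79, 0.24, 0.51 and -0.43 for the same genes. With the hypothalamus sum it was 0.73 for Ddc, 0.73 for Slc18a2, 0.58 for Slc6a4 and 0.20 for Maoa. Gch1 and Slc6a3 followed the hypothalamus sum (0.77 and 0.84) more than the midbrain sum (0.62 and 0.74). For Tph2 and Maob the hypothalamus sum gave less (0.57 and 0.51) than the midbrain sum (0.74 and 0.71). For Th and Ddc a correlation of this size was thus not particular to the midbrain list, and for the other genes that was not tested. These are descriptions over 6 points that share their libraries, the low HFD replicate 3 included. With the sum of the midbrain dopamine neuron list as a covariate the log2 fold change was -0.71 for Th (unadjusted p 0.0246), -1.34 for Gch1 (0.00579), -1.03 for Tph2 (0.0370) and -1.80 for Slc6a4 (0.00167). That sum holds Foxa2, which was itself lower under the HFD. With Foxa2 left out of it, the values were -0.77 for Th, -1.40 for Gch1, -1.13 for Tph2 and -2.01 for Slc6a4. With the hypothalamus sum instead, Th was at -0.50 (0.0167), Gch1 at -1.21 (0.0131), Tph2 at -1.14 (0.0426) and Slc6a4 at -1.71 (0.0221). With the olfactory bulb sum Th was at -0.64 (0.0223). The log2 fold change of Slc6a3 was -0.03 with the midbrain and 0.07 with the hypothalamus covariate. All of these fits had 0 genes with an adjusted p under 0.05 by edgeR's quasi-likelihood test. By unadjusted p under 0.05 there were 410 genes with the midbrain covariate and 493 with that covariate without Foxa2. There were 343 with the hypothalamus and 336 with the olfactory bulb covariate. What part the region content of the libraries had in the differences was not tested beyond these fits.

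Ratios between genes within a library do not depend on its depth. The count of Gch1 per count of Slc6a3 was 0.466, 0.544 and 0.517 under the NCD and 0.207, 0.212 and 0.167 under the HFD. In this ratio HFD replicate 3 was still the lowest but close to the other HFD libraries, and the diets did not overlap. The ratio in HFD replicate 3 rests on 4 counts of Gch1 and 24 of Slc6a3. Relative to Slc18a2, Gch1 stood at 0.188 to 0.221 under the NCD and at 0.0455 to 0.105 under the HFD, and relative to Ddc at 0.0981 to 0.155 and at 0.0292 to 0.0694, again with no overlap. Gch1 did not overlap by itself, and Slc6a3, Slc18a2 and Ddc differed little between the diets, so these ratios are no separate evidence. Relative to Th the diets overlapped, with 0.196 to 0.270 under the NCD and 0.109 to 0.200 under the HFD. They overlapped as well relative to Tph2 (0.646 to 2.45 against 0.571 to 1.27) and Slc6a4 (0.574 to 2.45 against 0.80 to 4.67), where the mean ratio to Slc6a4 was higher under the HFD. The ratio of Th to Slc6a3 overlapped as well, at 1.72, 2.78 and 2.42 under the NCD and 1.03, 1.94 and 1.08 under the HFD. Slc6a4 had 11, 36 and 54 counts where Tph2 had 11, 34 and 48 in the NCD libraries, and 15, 3 and 1 counts where Tph2 had 12, 11 and 7 in the HFD libraries.

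**Figure D4:**
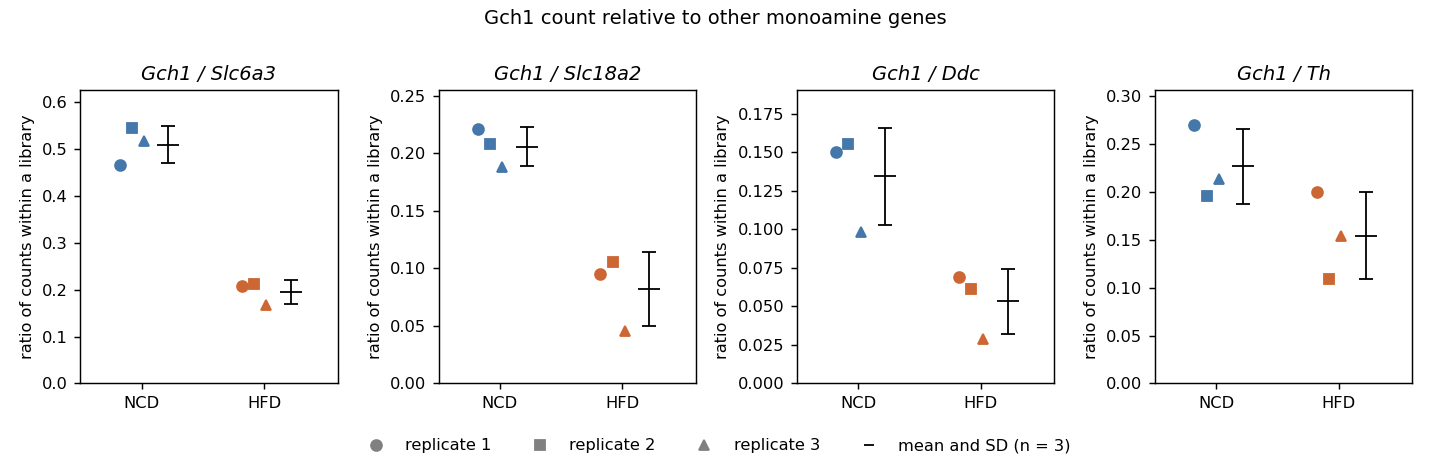
Count of Gch1 divided by the count of Slc6a3, Slc18a2, Ddc or Th within each library (vertical axes from 0), with the mean and SD of 3 libraries per diet. Gch1 per Slc6a3 was 0.466 to 0.544 under the NCD and 0.167 to 0.212 under the HFD, and of the 4 panels the diets overlap in that for Th. The level of Gch1 alone did not overlap between the diets either.

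Further genes of monoamine handling came from 4 lists with 25 genes, of which 17 were tested, 8 with a log2 fold change below 0 and 9 above. Their median was 0.01, against -0.00 over all genes and -0.25 over the 9 genes above. By unadjusted p under 0.05, 0 of the 17 were lower and 1 was higher under the HFD, against the 1.71% of all genes given above. That gene was Sult1a1, a sulfotransferase, at 7.76, 4.74 and 4.52 CPM under the NCD and 7.76, 8.51 and 9.47 CPM under the HFD. The 2 diets met at NCD replicate 1 and HFD replicate 1, and edgeR gave a log2 fold change of 0.61 (SE 0.25) with unadjusted and adjusted p-values of 0.0293 and 0.979.

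Besides Gch1, 7 genes of tetrahydrobiopterin synthesis and recycling were listed and 6 were tested. Of these, 2 had a log2 fold change below 0 and 4 above, from -0.07 to 0.37, and 0 had an unadjusted p under 0.05. Qdpr, which regenerates the cofactor, differed by 0.01 (SE 0.11), and the synthesis enzymes Spr and Pts differed by -0.02 (0.13) and -0.07 (0.19). Gchfr, which encodes the feedback regulator of GTP cyclohydrolase, was under the filter, with 2, 9 and 8 counts under the NCD and 3, 5 and 0 under the HFD.

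Of the other synthesis genes, Hdc, which makes histamine, was tested alone. It stood at 6.04, 6.14 and 6.42 CPM under the NCD and at 4.60, 5.24 and 3.98 CPM under the HFD. The diets did not overlap, while the difference was -0.42 on the log2 scale (SE 0.26, unadjusted p 0.117). Dbh, which makes noradrenaline from dopamine, had 0, 1 and 0 counts under the NCD and 1, 2 and 1 under the HFD, all under the floor. The noradrenaline transporter Slc6a2 had at most 3 counts in any library.

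Among the other transporters, Slc29a4, Slc22a3 and Slc22a2, which carry monoamines with low affinity, differed by -0.12 (SE 0.22), 0.40 (0.41) and -0.73 (0.49) on the log2 scale. All 7 other genes of breakdown were tested. The log2 fold change was 0.04 (SE 0.12) for the aldehyde dehydrogenase Aldh2 and 0.14 (0.11) for the aldehyde reductase Akr1a1, with overlapping diets in both.

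**Figure D5:**
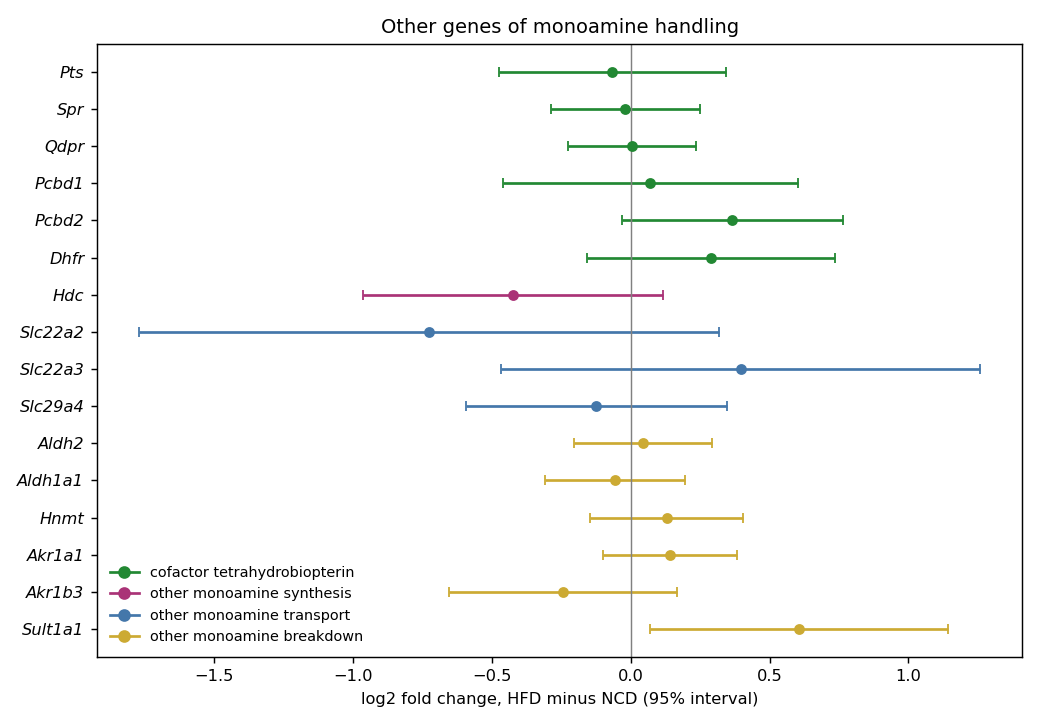
Log2 fold change (HFD minus NCD, horizontal axis) with its 95% interval for tested genes of cofactor metabolism, other synthesis, other transport and other breakdown, in colours by list. Apart from Sult1a1 (0.61), the intervals include 0.

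The monoamine genes also varied together to different degrees across the 6 libraries. On log2 CPM, the Pearson correlation was 0.90 between Th and Gch1, 0.92 between Tph2 and Slc6a4 and 0.92 between Ddc and Maob, while that of Maoa with the other genes ran from -0.64 with Maob to 0.50 with Slc6a3. The 5 genes most like Th were H1fx, Zic2, Rhno1, Fam181a and Pde4c, with correlations of 0.98 to 0.99. Those most like Gch1 were Lhx1os, Stxbp5, Nt5dc2, Rsu1 and Sun1, at 0.987 to 0.998. Those most like Tph2 were Rabl3, Sfxn5, Zdhhc9, Xrn1 and Vangl1, at 0.98 to 0.99, and those most like Slc6a4 were Gm29766, Daglb, Adrbk1, Whamm and Miat, at 0.986 to 0.997. The gene most like Ddc was Nono, and for Slc6a3 it was Mapre2, for Slc18a2 Klhdc10, for Maoa Zscan26 and for Maob Tarbp2, each with a correlation of 0.99 or above. With 6 libraries and 13770 genes compared such values are common. Between 84 genes for Maoa and 568 for Slc6a3 exceeded a correlation of 0.9.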

How the data were processed

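RNA of 3 NCD and 3 HFD forebrain libraries was measured by QuantSeq, whose reads lie near the 3′ ends of polyadenylated transcripts. After adaptor trimming the authors mapped the reads to mm10 (Bowtie2) and summed single and multiple alignments over each gene (bedtools). The deposited values are these raw read counts, without normalization. Tool versions, the gene annotation and the use of strand are not given in the sources used here. Reads that align to several places can be counted more than once, and tag counts are not scaled to gene length, so levels were compared between libraries and not between genes.

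Tests were run with edgeR 4.0.16 in R 4.3.3. filterByExpr (minimum count 10, minimum total count 15) was followed by TMM scaling and a quasi-likelihood test of diet over all 6 libraries, with Benjamini-Hochberg adjustment over 13771 genes. Standard errors were derived as log2 fold change over the root of the F statistic. CPM is given without a prior count, and correlations used log2 CPM with a prior count of 2. Entries sharing a symbol with another (79) were kept apart. The floor of 3 counts covers counting error only, and the 95% intervals come from the fit. No libraries of a diet agreed within sampling noise (chi-square per degree of freedom 3.47 or more). The procedure was also run on simulated data with the same dispersion for all genes and no outlying library, which checks the code and not these results. The genes, marker lists and tests were chosen with earlier results of these data known. All 9 genes are named, and of each list of further monoamine genes those with an unadjusted p under 0.05 or with diets that do not overlap, otherwise the 3 with the highest mean CPM. Of the midbrain, raphe and hindbrain lists Pitx3, Nr4a2, En1, Foxa2, Fev and Gata3 are named, with those under an unadjusted p of 0.05. Some listed genes are not reported here. Gchfr, Slc6a2, Aldh2, Akr1a1, Eomes, Shisa3, Pmch, Oxt, Hcrt and Pomc were added after their values were seen. So were En2, Chrna6, Chrnb3, Gata2, Slc17a8, Otx2, Tal1, Tfap2d, Barhl1, Sox14, Ret, Slc10a4 and Sncg. Alternatives were DESeq2 1.42.0, quantile normalization of log2(CPM + 1) with limma 3.58.1, upper-quartile scaling, library size alone, other filters, genes over 2% of counts left out, a replicate block, marker sums as covariates and each library left out. Positions come from GENCODE vM21 and promoters from RefSeq, and plots were drawn with matplotlib 3.10.9. The metabolite data were not analysed here.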

Additional observations from a re-analysis of the deposited data

How the results depend on the processing

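Of 168 values of the 9 genes over 19 alternatives, 162 kept their direction and their side of an adjusted p of 0.05. With adjusted p-values of 0.979 or more in the main edgeR fit, that side was nearly fixed in advance and says little of stability. The unadjusted p, by the test of each fit, was under 0.05 in 16 of 19 alternatives for Th, 18 of 18 for Gch1, and 17 of 18 for both Tph2 and Slc6a4. For Maob it was in 1 of 19, and for the other genes in 0. Slc6a4 passed an adjusted p of 0.05 without a filter on low counts, at -2.12. Maoa changed sign with library size alone (-0.0085), without NCD replicate 3 (-0.0024) and without NCD replicate 2 and HFD replicate 2 (-0.0029), and ranged from -0.0024 to 0.030 (without NCD replicate 1) when 1 library was left out. Slc6a3 changed sign without HFD replicate 3 (0.16) and with the hypothalamus covariate (0.074), and ranged from -0.37 to 0.16 when 1 library was left out. With at least 10 counts in every library Gch1, Tph2 and Slc6a4 could not be tested. The number of genes with an adjusted p under 0.05 was 0 by edgeR, 2 by DESeq2, 23 without a filter, 0 to 3 when 1 library was left out (3 without NCD replicate 3) and 2 without NCD replicate 2 and HFD replicate 2. Genes with an unadjusted p under 0.05 and a fold of at least 1.5 numbered 103 lower and 73 higher. Without a filter there were 240 lower and 156 higher, and without NCD replicate 2 and HFD replicate 2 there were 143 higher. With each library left out in turn there were 101 to 145 lower and 60 to 119 higher, the last without NCD replicate 2. The covariates for olfactory bulb and hypothalamus, the midbrain covariate without Foxa2 and the fit without the second replicate of both diets were chosen after seeing the data. The causes were not tested.

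Over all genes tested, libraries that share a replicate number did not deviate together, with correlations of their deviations from the diet means of -0.03, 0.05 and -0.06, so the numbers were not taken as pairs. These values pool all genes, while replicate 2 was the highest of each diet for the olfactory bulb sum and for Th. With the number as a replicate block 0 genes passed an adjusted p of 0.05, as without it, and 371 had an unadjusted p under 0.05. The log2 fold change was -0.96 for Th, -1.51 for Gch1, -1.29 for Tph2 and -2.11 for Slc6a4. Low depth limits Gch1, Tph2 and Slc6a4, with 120 to 125 counts each over the 6 libraries.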
